A study of Mus musculus with 32 samples.

Results

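The 91 genes described here encode the nuclear part of the mitochondrial oxidative phosphorylation system and proteins named after it, and their transcripts were measured by RNA-seq in 32 mouse livers. They are the protein-coding nuclear genes whose symbols start with Ndufa, Ndufb, Ndufc, Ndufs, Ndufv, Sdha to Sdhd, Uqcr, Cox4i, Cox5, Cox6, Cox7, Cox8 or Atp5 and that had at least 10 counts in at least 16 libraries. Of the 98 protein-coding genes with such symbols 91 met this filter, among 35523 genes in all and 12466 that passed the same filter. By known function, 76 of them encode structural subunits. These are 7 core and 29 accessory subunits of complex I, 4 subunits of complex II, 8 of complex III, 12 of complex IV and 16 of complex V. A further 12 encode assembly factors (Ndufaf1 to Ndufaf8 and Sdhaf1 to Sdhaf4), which help to build a complex without staying in it. The last 3, Atp5s, Cox7a2l and Ndufa4l2, share the name of a family and were kept apart as related genes.

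Oxidative phosphorylation takes place at the inner mitochondrial membrane. Complexes I and II pass electrons from NADH and succinate to ubiquinone, complex III passes them on to cytochrome c, and complex IV hands them to oxygen, while complexes I, III and IV pump protons that complex V, the ATP synthase, uses to make ATP. Most subunits are encoded in the nucleus and imported, and a small set of subunits of complexes I, III, IV and V is encoded in mitochondrial DNA, so that both genomes have to supply parts of the same machines. In the liver this system burns the NADH and FADH2 released by fatty acid oxidation and the tricarboxylic acid cycle.

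Livers came from male and female C57BL/6J mice, either wildtype (WT) or whole-body Nudt7-/- (KO), fed a control diet (CD) with 10% of the energy from fat and 0% cholesterol or a Western diet (WD) with 41% of the energy from fat and 0.2% cholesterol. Each of the 8 groups of sex, genotype and diet held 4 mice, the diets were given from 6 weeks of age, and mice were killed at 17 to 20 weeks. Nudt7 encodes a peroxisomal enzyme that degrades CoA species. The KO allele lacks exons 3 and 4 in every tissue. All KO mice descend from a single founder made in FVB zygotes and backcrossed to C57BL/6J, and the controls were Nudt7+/+ littermates. Whether these livers were taken in the fed or the fasted state is not given in the sources used here.

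Library totals ran from 10140048 to 15825078 counts. Nudt7 stood between 96.2 and 657 CPM (counts scaled to library size, with TMM normalization) in the 16 WT libraries and between 21.3 and 249 in the 16 KO libraries, with no overlap between KO and WT mice within any combination of sex and diet. The 4 Y-linked marker genes summed to 141 to 217 CPM in males and to at most 1.39 in females. The 10 hepatocyte markers took 53360 to 109400 CPM per library and the Kupffer cell markers 237 to 623. In 4 libraries pancreatic acinar transcripts exceeded 10 times the median of all libraries, namely WT females on the CD replicates 2 and 4, KO females on the CD replicate 3 and WT females on the WD replicate 4. In whole liver, fewer cells of a type and less RNA per cell cannot be told apart.

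Among the 91 genes, the level per length (TPM, which divides by transcript length, as deposited) spanned 2.64 for Ndufa4l2 to 1162 for Atp5g3, which encodes the membrane ring subunit c of the ATP synthase. Transcripts of complexes IV, V and III were the most abundant, with medians of 507 (complex IV), 427 (complex V) and 411 TPM (complex III). Subunits of complex II had a median of 218 TPM, and the 4 of them lay close together, from 197 for Sdhc to 242 for Sdha. Accessory and core subunits of complex I had medians of 172 and 114 TPM. Within the core, Ndufs3 was highest at 166 TPM and Ndufs1, the subunit with most of the iron-sulfur clusters of the electron entry arm, lowest at 65.7. The assembly factors had a median of 18.3 TPM, from 2.69 for Sdhaf3 to 29.5 for Sdhaf4. In complex III the extremes were Uqcrq (572 TPM) and Uqcrc1 (160.2 TPM), and in complex I Ndufa6 (412 TPM) and Ndufb4 (36.9 TPM). Ndufb4 has an expressed near-identical copy, Ndufb4c, annotated as a processed pseudogene, between which the authors' counting may have divided reads, so its level is uncertain.

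**Figure D1:**
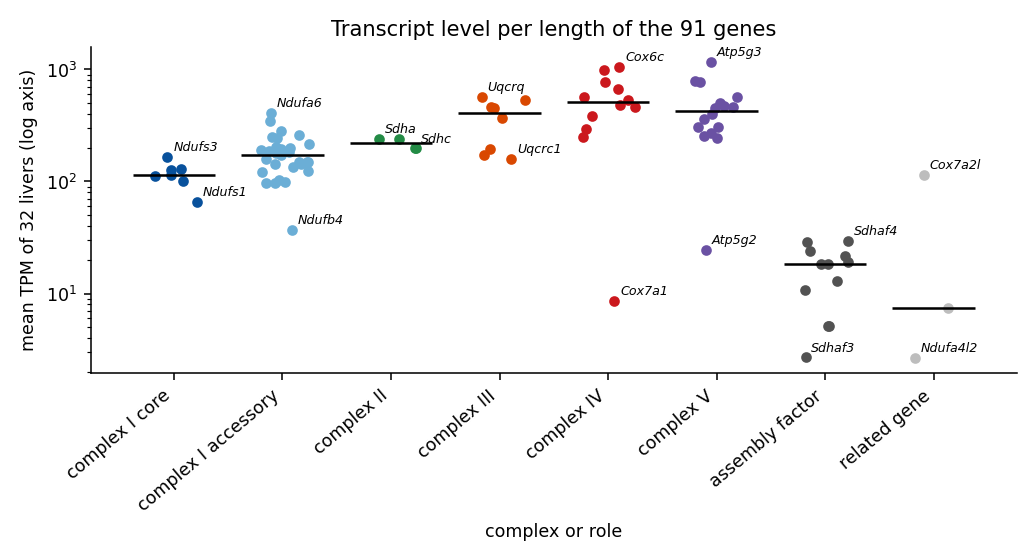
Mean TPM over the 32 livers (log axis) of each of the 91 genes, grouped by complex or role, where a point is a gene, a bar the median of its group, and the highest and the lowest gene of each group are named. Most subunits lie between 100 and 1000 TPM, while Cox7a1 at 8.55, Atp5g2 at 24.4 and the assembly factors, at most 29.5, lie lower.

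Several subunits of complexes IV and V occur as isoforms of different tissues, and the liver libraries held nearly only the general form. Cox7a1, the heart and muscle form of subunit 7A, reached 8.55 TPM, and its counts ranged from 0 to 81 per library with at least 10 in 21 of 32 libraries. The muscle forms Cox6a2 and Cox8b failed the filter, with at least 10 counts in only 4 libraries each. Their highest counts, 152 for Cox6a2 and 59 for Cox8b, were both in KO females on the CD replicate 3, where Cox7a1 also peaked at 81 counts. In that library the summed skeletal muscle and brown fat markers stood at 935 CPM, against a median of 1.45 over all libraries, and Ckm, the muscle creatine kinase, stood at 116 CPM. Cox8b reached 33 counts in KO females on the WD replicate 4, where Ucp1, the uncoupling protein of brown fat, was at 19.6 CPM. The part of such tissue in these counts was not tested. Cox4i2, the form of subunit 4 in lung, had at most 3 counts in any library and the testis form Cox6b2 at most 8, while Cox7b2 and Cox8c were at 0 in all 32 libraries. A second annotated Atp5o gene had 1 count in a single library. Of the 3 genes for subunit c, Atp5g3 (1162 TPM) and Atp5g1 (365 TPM) were abundant and Atp5g2 (24.4 TPM) was low. Just inside the count filter stood Cox7a1 and Ndufa4l2, each with 10 or more counts in 21 libraries.

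Promoter windows of RefSeq (build GRCm38.p6, 250 bases before to 50 bases after the annotated start) were available for 77 of the 91 genes and were searched on both strands for 4 motifs of factors known to act on respiratory genes. The NRF1 motif GCGCANGCG lay in a window of 24 of the 77 genes (31.2%). It was found for 15.1% of the genes tested that had a window and for 7.03% of all genes with a window. The YY1 motif AAGATGGCG was found for 8 genes (10.4%), against 3.59% of genes tested and 1.64% of all. The GABPA motif CCGGAAGT was found for 5 genes (6.49%), against 8.95% of genes tested and 4.31% of all. The ERR motif TCAAGGTCA was found for 2 genes, Sdhd and Atp5g3, and in 0.307% of genes tested and 0.466% of all. Matches that overlapped on opposite strands counted once per gene, and a match is a string of letters, not a bound site. The 4 windows below belong to subunits of complexes I to IV that fell on the WD in WT males (described next) and show the 4 motifs, in capitals, whose positions are counted from the annotated start.
Ndufs7, core subunit of complex I, chr10:80249199-80249498, plus strand, YY1 at 24: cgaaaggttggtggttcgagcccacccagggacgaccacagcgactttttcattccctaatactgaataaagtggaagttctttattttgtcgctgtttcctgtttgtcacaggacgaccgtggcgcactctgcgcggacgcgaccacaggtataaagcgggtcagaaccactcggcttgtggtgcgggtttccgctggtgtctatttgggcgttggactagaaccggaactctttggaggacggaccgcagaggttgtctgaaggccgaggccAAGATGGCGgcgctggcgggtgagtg
Sdhd, membrane anchor of complex II, chr9:50603800-50604099, minus strand, NRF1 at -79 and ERR at 36: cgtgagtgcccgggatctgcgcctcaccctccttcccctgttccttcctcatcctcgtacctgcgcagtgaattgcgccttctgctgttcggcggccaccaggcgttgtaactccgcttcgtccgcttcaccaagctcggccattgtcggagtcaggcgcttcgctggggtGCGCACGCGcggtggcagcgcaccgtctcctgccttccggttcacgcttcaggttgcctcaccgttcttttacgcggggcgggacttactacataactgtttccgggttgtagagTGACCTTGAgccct
Uqcr11, small subunit of complex III, chr10:80406772-80407071, minus strand, GABPA at -66 and NRF1 at -5: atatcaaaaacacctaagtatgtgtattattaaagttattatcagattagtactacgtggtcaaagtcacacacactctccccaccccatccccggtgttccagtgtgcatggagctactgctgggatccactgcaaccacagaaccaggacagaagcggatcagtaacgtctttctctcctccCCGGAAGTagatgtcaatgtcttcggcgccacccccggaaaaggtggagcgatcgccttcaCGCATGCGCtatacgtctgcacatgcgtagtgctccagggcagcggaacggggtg
Cox8a, small subunit of complex IV, chr19:7217567-7217866, minus strand, GABPA at -6 and 31: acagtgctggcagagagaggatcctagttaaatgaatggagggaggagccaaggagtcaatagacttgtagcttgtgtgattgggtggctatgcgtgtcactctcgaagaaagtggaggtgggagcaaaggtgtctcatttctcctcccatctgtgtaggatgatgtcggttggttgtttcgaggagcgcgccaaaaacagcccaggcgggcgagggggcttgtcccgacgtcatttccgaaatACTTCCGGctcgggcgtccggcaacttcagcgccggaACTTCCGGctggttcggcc

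The first question was how the WD affected these transcripts. In WT males 60 of the 91 genes were lower on the WD and none was higher (quasi-likelihood F test of edgeR over all genes, Benjamini-Hochberg adjusted p under 0.05, WD against CD). Over all 12466 genes, 6.28% were called lower and 5.13% higher. The median log2 fold change was -0.47 over the 91 genes and -0.01 over all genes tested, and 86 of the 91 values were below 0. Every complex contributed. The genes that fell were 28 of the 36 subunits of complex I, 3 of 4 of complex II, 6 of 8 of complex III, 8 of 12 of complex IV, 12 of 16 of complex V and 3 of the 12 assembly factors. Median log2 fold changes were -0.41 for the complex I core, -0.58 for its accessory subunits, -0.45 for complex II, -0.47 for complex III, -0.63 for complex IV, -0.45 for complex V and -0.15 for the assembly factors. The summed counts of the 91 genes made up 1.05 to 1.32% of each of the 4 WT male libraries on the CD and 0.805 to 0.922% of each of the 4 on the WD, so these groups did not overlap.

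**Figure D2:**
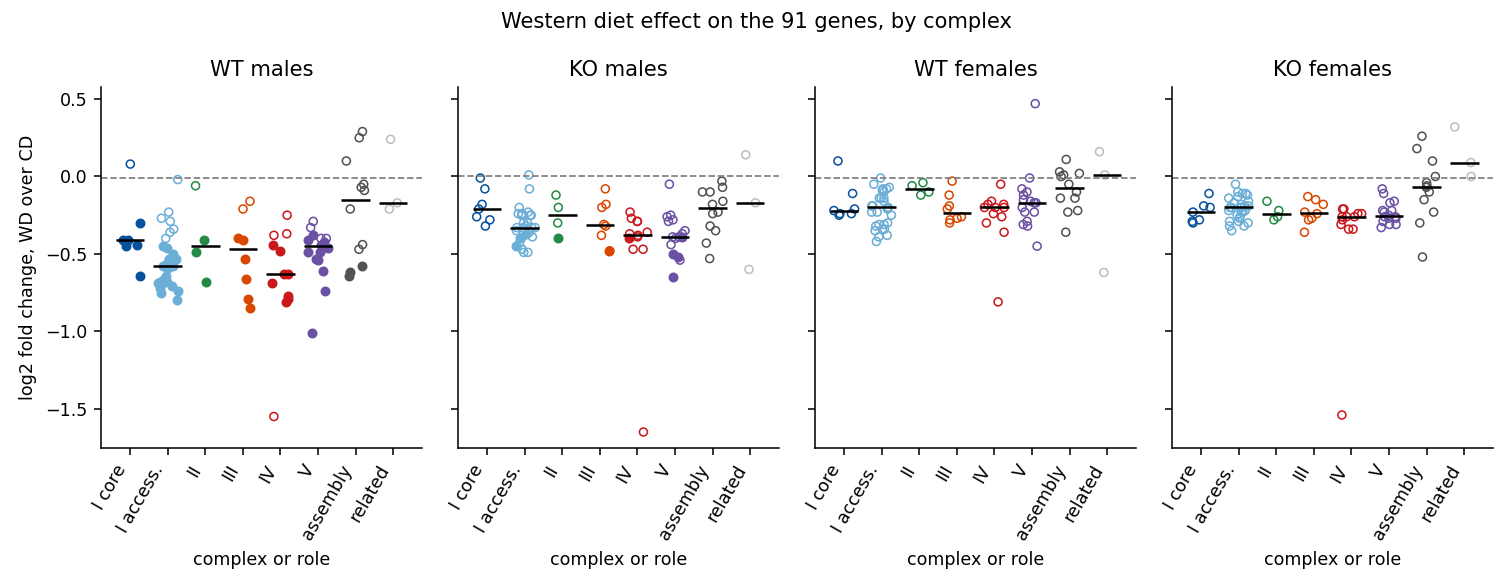
Log2 fold change of WD over CD for each of the 91 genes in the 4 combinations of sex and genotype, grouped by complex or role; filled points passed the test (adjusted p under 0.05), bars are group medians and the dashed line is the median of all genes tested. In WT males 60 points are filled and in KO males 10, all below 0, and in females none.

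The size of this count depended on single mice. Without WT males on the CD replicate 3 the count of lower genes was 21, without CD replicate 4 it was 28, without WD replicate 3 it was 27 and without WD replicate 4 it was 39, while the median log2 fold change of the 91 genes stayed between -0.55 and -0.40 when any of the 32 libraries was left out.

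Complex II, which oxidises succinate and also belongs to the tricarboxylic acid cycle, held the gene with the smallest p. Sdhd, one of its membrane anchors, stood at 204, 194, 209.7 and 199.9 CPM in the 4 WT males on the CD and at 144, 156, 138 and 137 CPM in those on the WD. All WD values lay below all CD values, and the log2 fold change was -0.49 (standard error 0.08, adjusted p = 0.000415). Sdhc, the other anchor, fell by 0.41 (adjusted p = 0.00992) and Sdhb, the iron-sulfur subunit, by 0.68 (adjusted p = 0.0102) on the log2 scale. Sdhb varied more between mice on the CD, with 196, 152, 281.6 and 228 CPM, against 144, 135, 121 and 135 on the WD. Sdha, the flavoprotein that carries the succinate site, had 541, 529.8, 557 and 508 CPM on the CD and 539, 511, 511 and 483 on the WD. Its groups overlapped and it did not pass the test (-0.06, standard error 0.09, adjusted p = 0.703).

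In complex I the accessory subunits Ndufb5, Ndufb9 and Ndufc2 had the smallest p. Ndufb5, a subunit of the membrane arm, stood at 89.3, 69.9, 115 and 94.8 CPM in WT males on the CD and at 57.3, 63.7, 49.4 and 54.6 on the WD. The groups did not overlap (log2 fold change -0.71, standard error 0.15, adjusted p = 0.00428). Ndufb9 fell by 0.74 (adjusted p = 0.00601) and Ndufc2 by 0.68 (adjusted p = 0.00617) on the log2 scale. Ndufb4, whose level is uncertain, had -0.80 (adjusted p = 0.00716). Of the core, which holds the electron path from NADH to ubiquinone, 6 of 7 subunits fell, led by Ndufs7 (-0.64, standard error 0.18, adjusted p = 0.0227), Ndufv1 (-0.41, 0.12, 0.0238) and Ndufv2 (-0.44, 0.13, 0.0272). Ndufs7 stood at 43.0, 37.2, 51 and 55.5 CPM on the CD and at 30.0, 36.1, 27.7 and 26.1 on the WD, where the highest WD mouse was just below the lowest CD mouse. The exception was Ndufs1, at 120, 113, 122 and 116 CPM on the CD and 129, 118, 132 and 118 on the WD, and its value on the log2 scale was 0.08 (standard error 0.09, adjusted p = 0.633).

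Of complex III, the small subunits Uqcr11 (-0.85, standard error 0.20, adjusted p = 0.00748), Uqcr10 (-0.66, 0.17, 0.0116) and Uqcrq (-0.79, 0.22, 0.0199) had the smallest p. Uqcr11 stood at 122, 97.1, 166 and 140 CPM on the CD and 73.7, 81.6, 61.3 and 74.2 on the WD, with no overlap. Its larger subunit Uqcrc1, one of the core proteins that do not carry electrons, fell by 0.40 (adjusted p = 0.0313). Uqcrfs1, the Rieske iron-sulfur protein, had -0.21 (adjusted p = 0.191) and did not pass.

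In complex IV, where oxygen is reduced, Cox8a (-0.77, standard error 0.16, adjusted p = 0.00428), Cox6a1 (-0.81, 0.18, 0.00706) and Cox7b (-0.79, 0.18, 0.00716) led. Cox8a stood at 143, 113, 183 and 165 CPM on the CD and at 86.5, 98.0, 78.3 and 92.4 on the WD, again with no overlap. Cox7a2 fell by 0.69 (adjusted p = 0.00807), Cox4i1 by 0.44 (adjusted p = 0.0461) and Ndufa4, now counted as a subunit of complex IV, by 0.48 (adjusted p = 0.0471). The abundant Cox6c and Cox6b1 had -0.37 and -0.38 and did not pass (adjusted p = 0.068 and 0.0709). Cox7a1 had the lowest value of all 91 genes, -1.55, with a standard error of 0.66 and an adjusted p of 0.12. Its counts in WT males were 21, 7, 40 and 13 on the CD and 6, 3, 1 and 15 on the WD. The muscle gene Acta1 was highest in the same mice as Cox7a1, with 13.3 CPM in CD replicate 3 and 19.5 in WD replicate 4, where Ucp1 stood at 13.5 CPM, and the part of such tissue in this value was not tested.

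In complex V the fall was steepest for Atp5g1, a gene of the proton-carrying subunit c. Atp5g1 stood at 148, 112, 176 and 154 CPM on the CD and 81.2, 66.4, 71.2 and 74.2 on the WD. The groups were far apart (-1.01 on the log2 scale, standard error 0.19, adjusted p = 0.00165). Atp5g3, which encodes the same mature protein, fell by 0.42 (adjusted p = 0.0317), and Atp5g2 had -0.40 with a standard error of 0.27 (adjusted p = 0.342). Atp5d, a subunit of the rotor stalk, fell by 0.61 (adjusted p = 0.00794). Atp5b, the catalytic subunit, is long for this set at 1886 bases and stood at 1167, 1091, 1349 and 1255 CPM on the CD against 940.3, 951, 888 and 887 on the WD. It fell by 0.41 on the log2 scale (standard error 0.11, adjusted p = 0.0142), with no overlap between the groups. Its partner Atp5a1 had -0.29 and did not pass (adjusted p = 0.0545).

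**Figure D3:**
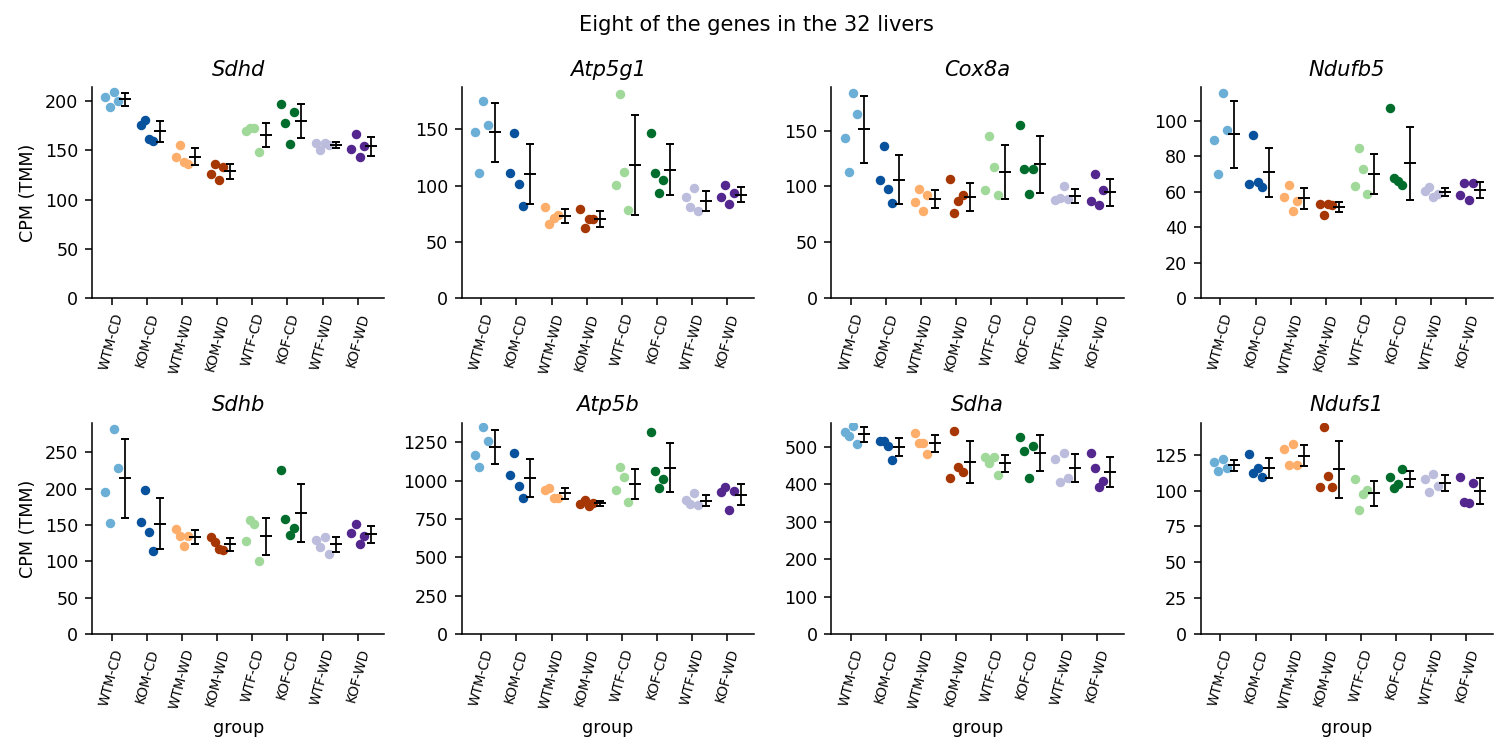
CPM (TMM) of 8 of the genes in each of the 32 livers by group, with the mean and SD of 4 mice beside the points (WTM, KOM, WTF and KOF, WT or KO males and females; CD and WD, diets; every axis starts at 0). In WT males the WD points of Sdhd, Atp5g1, Cox8a, Ndufb5, Sdhb and Atp5b lie below all CD points, whereas those of Sdha and Ndufs1 overlap with the CD points.

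Assembly factors moved less. Sdhaf4 (-0.64, standard error 0.20, adjusted p = 0.0335), Ndufaf3 (-0.58, 0.18, 0.0336) and Ndufaf8 (-0.62, 0.20, 0.0432) fell in WT males. Sdhaf4 acts on Sdha before it joins complex II and stood at 12.6, 9.14, 14.4 and 12.7 CPM on the CD and 6.25, 8.57, 6.33 and 9.96 on the WD, where the ranges overlapped. Ndufaf1, an early factor of complex I assembly, stood at 24.4, 25.9, 27.9 and 27.6 CPM on the CD and at 35, 28.9, 30.0 and 32.1 on the WD. Its groups did not overlap, but with a log2 fold change of 0.25 it did not pass (adjusted p = 0.0624).

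These transcripts are short, and the diet effect in WT males varied with length across genes. The 91 genes had a median transcript length of 730 bases, from 372 to 3634, against a median of 2487 over all genes tested, and 63 of them were under 1000 bases. In WT males the log2 fold change of all genes tested increased with length (Spearman 0.329 across genes, a description, since genes are not independent), and the 981 other genes under 1000 bases had a median of -0.27, with 16.9% of them lower. The 63 short genes of the set had a median of -0.55 and 48 were lower. The 28 longer ones, of 1000 bases or more, had a median of -0.29 and 12 were lower, against a median of 0.01 and 4.89% lower among the other genes of that length. Genes within the length range of the set, 9181 in number, had a median of -0.05 and 7.71% were lower. Within the set, the Spearman correlation of the log2 fold change with length was 0.492.

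**Figure D4:**
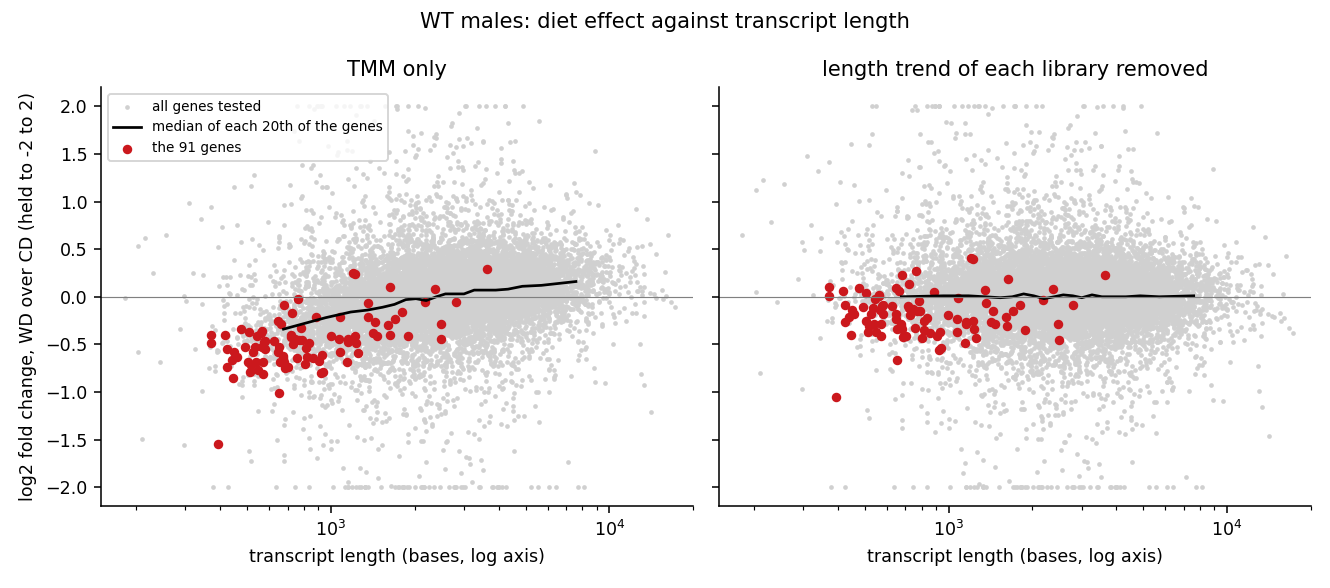
Log2 fold change of WD over CD in WT males against transcript length (log axis) for all 12466 genes tested (grey, values held to the range -2 to 2) and the 91 genes (red), with the median of each 20th of the genes by length as a line. Left, TMM normalization only, where the line rises with length and the median of the red points is -0.47; right, after removal of that trend library by library, where the line is flat and their median is -0.19.

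When a smooth curve of log2 CPM deviations against log2 length was taken out of each library as an offset (the length trend removed), 24 of the 91 genes were lower and 1 was higher in WT males, against 4.50% and 5.09% of all genes tested, and the median log2 fold change was -0.19. All 24 were among the 60. They included 10 of 36 subunits of complex I, 3 of 4 of complex II, 3 of 8 of complex III, 5 of 12 of complex IV and 3 of 16 of complex V, but no assembly factor. Without WT males on the CD replicate 3 this fit called 13 genes in all. The largest fall was again that of Atp5g1, -0.66 (standard error 0.11, adjusted p = 0.000898). Sdhb had -0.49 (adjusted p = 0.0155), Sdhd -0.34 (adjusted p = 0.00542), Sdhc -0.25 (adjusted p = 0.046) and Atp5b -0.35 after this removal. Of the 63 genes under 1000 bases 17 were still lower, against 4.49% of the other genes of that length. They included Uqcr11 (-0.85 before and -0.40 after), Cox6a1 (-0.81 and -0.41) and Cox8a (-0.77 and -0.37). Ndufa6 (-0.46 and -0.09), Cox4i1 (-0.44 and -0.13) and Atp5g3 (-0.42 and -0.10) no longer passed. The gene that was higher was Ndufaf1 (0.41, standard error 0.08, adjusted p = 0.00272).

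The same tilt ran through single libraries. Against the mean of the 32 livers, the median log2 deviation of the 91 genes and that of the 981 other short genes were both above 0 in 10 libraries and both below 0 in 16, and the 91 genes were farther from 0 in 28 of 32 libraries. WT males on the CD replicate 3 stood at 0.56 and 0.30, and KO males on the WD replicate 2 at -0.26 and -0.24 (set and other short genes). Of the 16 libraries from mice on the WD, 15 had a median deviation of the 91 genes below 0, the exception being KO females replicate 2 (0.02). In WT males the other short genes stood at 0.05 to 0.30 on the CD and at -0.20 to -0.02 on the WD. The tilt thus went along with diet there, and its removal may also take out part of a diet effect. The part of diet, RNA quality or library preparation in this tilt was not tested.

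**Figure D5:**
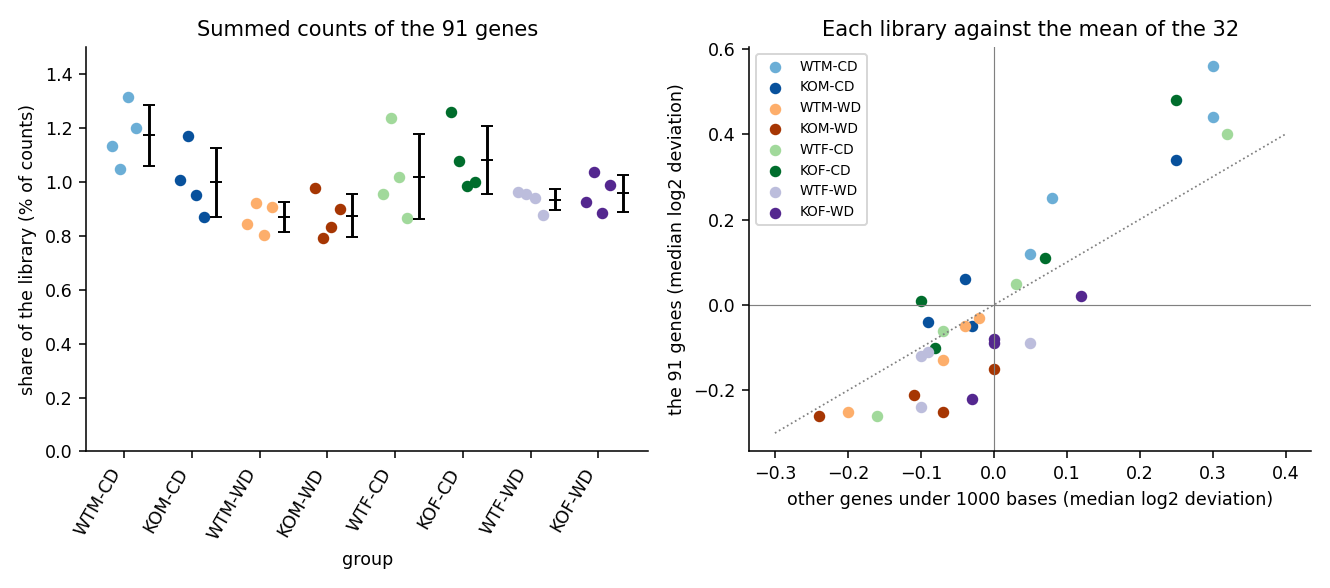
Left, summed counts of the 91 genes as a percentage of all counts in each library by group, with mean and SD of 4 mice; right, median log2 deviation of the 91 genes from their mean over 32 livers against that of the other genes under 1000 bases, a point per library, with the line of equality dotted. In the right panel both values are above 0 in 10 libraries and below 0 in 16, and 6 have opposite signs or a 0. The 91 genes are farther from 0 in 28 of 32 libraries, so many points lie off the line of equality. In the left panel WT males on the WD (0.805 to 0.922%) lie below WT males on the CD (1.05 to 1.32%).

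In KO males on the WD 10 of the 91 genes were lower and none was higher, against 2.65% and 3.38% of all genes, and the median log2 fold change was -0.32. Their share of the counts was 0.869 to 1.17% on the CD and 0.793 to 0.978% on the WD, so the groups overlapped. The 10 genes were Sdhd (-0.40, standard error 0.08, adjusted p = 0.00225), Uqcrh (-0.48, adjusted p = 0.024), Cox5a (-0.40, adjusted p = 0.0298), Ndufab1, Ndufb10 and Ndufa6 of complex I, and Atp5o, Atp5j2, Atp5g1 and Atp5c1 of complex V. Cox5a, a subunit that joins complex IV early in its assembly, was the single one of them that did not pass in WT males. Sdhd stood at 175, 181, 162 and 159.9 CPM in KO males on the CD and 126, 136, 120.0 and 133 on the WD. All WD values lay below all CD values. Atp5o, the stalk subunit OSCP, stood at 113, 142, 105 and 106 CPM on the CD and 84.7, 82.2, 79.9 and 83.7 on the WD, also with no overlap (-0.50, adjusted p = 0.0272). Atp5g1 fell by 0.65 (adjusted p = 0.0338), from 112, 146, 101.2 and 82.2 CPM to 79.7, 62.3, 70.2 and 70.0. After removal of the length trend 8 genes were lower and none higher, against 2.94% and 3.77% of all genes, and the median was -0.14. Sdhd, Uqcrh, Atp5c1, Atp5g1, Atp5j2 and Atp5o were among them, joined by Ndufb5 and Cox7a2.

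This count also changed when single mice were left out. It was 6 without KO males on the CD replicate 1, 1 without CD replicate 2, 5 without WD replicate 1, and 1 without WD replicate 3 or 4. After that removal it was 4 without CD replicate 2, 5 without CD replicate 3, 5 without WD replicate 1, 13 without WD replicate 2 and 4 without WD replicate 3 or 4. Outside these groups, leaving out WT females on the CD replicate 2 gave 19 genes, and leaving out all 4 libraries with acinar transcripts gave 23.

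In females no gene of the set passed the test. In WT females the median log2 fold change of WD over CD was -0.19, none of the 91 genes was called (0.313% of all genes were, in either direction) and 8 had an unadjusted p under 0.05, against 11.6% of all genes. In KO females the median was -0.22, none was called (0.120% of all genes were) and 19 had an unadjusted p under 0.05, against 8.74%. DESeq2 on the same sums, or with length offsets, called none either. In WT females the smallest p belonged to Ndufb7 (-0.42, adjusted p = 0.222). After removal of the trend the medians were -0.07 in WT and -0.18 in KO females, where 11 and 48 of the 91 genes had an unadjusted p under 0.05 (13.1% and 10.2% of all genes did) and none was called. The fit that left out the libraries with acinar transcripts as well as the length trend called 4 genes lower in KO females, among them Ndufb6, Ndufv1 and Cox5b. That fit was chosen after seeing the data. The share of all genes it called is not given here, so this count cannot be set against a background. Sdhd stood at 170, 173, 173 and 148 CPM in WT females on the CD and 157, 151, 158 and 156 on the WD, where the ranges overlapped. Atp5g1 stood at 100.3, 181.5, 112 and 78.7 CPM on the CD and 89.8, 81.5, 97.7 and 77.8 on the WD. Libraries with acinar transcripts gave its highest value on the CD (replicate 2) but also its lowest on each diet (replicate 4).

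The differences between these diet effects were tested themselves. None of the 91 genes passed for females less males (mean of WT and KO, 0.241% of all genes passed). The median difference was 0.19, and 11 genes had an unadjusted p under 0.05, against 11.9% of all genes. Sdhd came closest (0.29, standard error 0.08, adjusted p = 0.13), and DESeq2 called it (adjusted p = 0.0137, and 0.021 with length offsets) and no other. With the length trend removed the median difference was 0.04. For KO less WT males none passed either (0.0642% of all genes did, and none of the 91 with DESeq2). The median difference was 0.15, 5 genes had an unadjusted p under 0.05, against 12.4% of all genes, and the median was 0.02 with the length trend removed.

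The next question was whether deletion of Nudt7 changed these transcripts within a sex and diet. No gene of the set was called in any of the 4 comparisons of KO with WT mice, by edgeR or by DESeq2. Among all genes tested, edgeR called none lower in KO than WT males fed the CD. It called none in either direction for WD-fed females. Nudt7 itself, whose KO and WT values did not overlap, was thus missed in both comparisons. A gene without a call there may still have changed. In males on the CD the median log2 fold change was -0.27 and 86 of 91 values were below 0. There, 38 genes had an unadjusted p under 0.05, against 9.27% of all genes, while 0.0160% of all genes were called. Sdhc (-0.34, adjusted p = 0.398), Sdhd (-0.25, adjusted p = 0.43) and Cox8a (-0.51, adjusted p = 0.43) had the smallest p. Sdhd in KO males on the CD, at 159.9 to 181 CPM, lay below the 194 to 209.7 CPM of WT males on the CD. With the length trend removed the median was -0.10. In males on the WD the median was -0.12 and 4 genes had an unadjusted p under 0.05, against 11.1% of all genes, of which 0.281% were called. In females on the CD the median was 0.10 and 2 genes had an unadjusted p under 0.05, against 11.6% (0.0882% called). In females on the WD it was 0.05 and 1 gene, Ndufa4l2, had an unadjusted p under 0.05, against 5.20%, with 0 called among all genes. Cox4i1 lies 6.51 Mb from Nudt7 on chromosome 8, closer than the other genes of the set there, Ndufb7 (30.6 Mb) and Ndufa13 (44.2 Mb), and sequence of the founder strain near the allele cannot be told apart from the deletion. Its log2 fold changes between KO and WT were -0.23 and -0.09 in males and 0.12 and 0.09 in females (CD and WD), with adjusted p-values of 0.634 and above.

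Males and females were compared within each diet. On the CD, with the mean of both genotypes, 2 of the 91 genes were lower in females and none was higher, against 7.50% and 8.50% of all genes. These were Ndufaf4 (-0.34, standard error 0.10, adjusted p = 0.0138), an assembly factor of complex I, and Cox7a2 (-0.37, 0.11, 0.0245). The median was -0.13. The count was 8 without WT males replicate 2, 4 without KO males replicate 3 or 4, 11 without KO females replicate 1 and 20 without WT females replicate 2, and it was 1 without WT males replicate 3, KO males replicate 2, WT females replicate 4 or KO females replicate 3. Once the trend was removed 8 were lower and none higher, against 9.75% and 8.92%, with 3 to 11 called when any single library was left out and 5 or fewer for most of them, and the lowest count came without WT males replicate 1 or 3 or without KO females replicate 3.

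On the WD Ndufaf4 (-0.34, adjusted p = 0.00946) and Ndufs1 (-0.22, standard error 0.07, adjusted p = 0.0148) were lower in females and Sdhd was higher (0.19, standard error 0.06, adjusted p = 0.0145), against 11.6% lower and 11.0% higher over all genes. Sdhd stood at 120.0 to 156 CPM in the 8 males on the WD and at 144 to 167 in the 8 females, so the sexes overlapped. The median was 0.05, and 5 genes were called without KO males replicate 1. Once the trend was removed 10 were lower and 1, Ndufa7 (0.22, adjusted p = 0.0211), was higher, against 13.2% and 11.1% of all genes, and Sdhd no longer passed (0.12, adjusted p = 0.0977). Over 76 alternatives Sdhd lost its call in 34. Without WT males replicate 1 that fit called 7. Ndufaf4 stood at 28 to 40.7 CPM in males on the WD and at 17.9 to 30.2 in females. Counted over protein-coding transcripts alone its difference was -0.46 on the CD (adjusted p = 0.0125) and 0.02 on the WD (adjusted p = 0.94), where it did not pass.

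Genes that work beside this set were read from lists. Of the 13 mRNAs of mitochondrial DNA, which encode the partners of these subunits, none was lower in WT males on the WD and 1, mt-Atp6, was higher (0.75, standard error 0.23, adjusted p = 0.0302), with a median of 0.16. Over all genes tested 5.13% were higher. With the length trend removed 5 of the 13 were higher, against 5.09% of all genes, and their median was 0.50. No mitochondrial mRNA was called in KO males or in females. Among 9 tested genes of the same complexes and their helpers outside the symbol rule, 5 were lower in WT males, led by Coa3, an assembly factor of complex IV (-0.70, adjusted p = 0.00629), and Cyc1, cytochrome c1 of complex III (-0.49, adjusted p = 0.0108), with a median of -0.52, while 6.28% of all genes were lower. After removal of the length trend 3 of the 9 were lower, against 4.50% of all genes, and their median was -0.25. Of 29 further assembly factors 1 was lower, against 6.28% of all genes, and the median was -0.11. It was Lyrm7 (-0.87, adjusted p = 0.0198), which helps to assemble the Rieske protein into complex III. Of 14 enzymes of the tricarboxylic acid cycle 4 were lower in WT males, against 6.28% of all genes, among them Fh1, fumarase (-0.43, adjusted p = 0.0264). The count of these enzymes with the length trend removed is not given here. In KO males Idh2 was higher (0.49, adjusted p = 0.0139), while 3.38% of all genes were higher. Slc25a3, the phosphate carrier that feeds the ATP synthase, was the single one called of 6 carriers and channels tested. It was lower in both WT males (-0.34, adjusted p = 0.0149) and KO males (-0.33, adjusted p = 0.0226), against 6.28% and 2.65% of all genes.

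None of the 15 regulators of mitochondrial biogenesis was called in any diet comparison. Their median log2 fold change was 0.06 in WT males. Over all genes tested 6.28% were lower and 5.13% higher in WT males, with smaller shares in the other diet comparisons. At such shares a list of 15 may hold no call. Esrra varied widely within a group, at 28.1, 4.32, 3.83 and 22.3 CPM in WT males on the CD. Ppargc1a, the coactivator PGC-1α, stood at 10.96, 12.1, 10.2 and 14.5 CPM in WT males on the CD and at 8.07, 12.3, 16.01 and 9.20 on the WD, with overlap. Cell type markers moved with diet in places. The 10 hepatocyte markers summed to 78960 to 96220 CPM in WT males on the CD and 70440 to 78920 on the WD, with 1 higher (Cyp2e1) and 1 lower, and in KO males 2 were lower, Ttr and Alb. Of the 8 adipocyte markers only 3 were tested. Of these 2 were higher in WT males, Cfd and Car3, and 1 in KO males, Cfd, against 5.13% and 3.38% of all genes. In WT males (CD and WD) the summed list stood at 1319 to 1987 and 2225 to 3404 CPM. In KO males it overlapped between the diets, at 1269 to 2711 CPM on the CD and 1057 to 2557 on the WD. Cfd itself took 7.38 to 26.4 CPM in WT males on the WD, a small part of the sum. No marker of macrophages, stellate cells, lymphocytes, cholangiocytes or acinar cells was called in males, 1 endothelial marker, Vwf, was higher in KO males, and 1 lymphocyte marker, Cd79a, was lower in WT females. The skeletal muscle and brown fat list had no gene that passed the count filter. The part of these shifts in the results for the 91 genes was not tested.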

How the data were processed

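The authors quantified paired-end mRNA-seq reads with Salmon (version 1.3.0 per the labels) and deposited an estimated count and a TPM value for each transcript. The submitters' processing notes also name DESeq2 1.28.1. Here the estimated counts were summed by gene with the gene symbols and biotypes of the annotation, and rounded to whole numbers. TPM, which divides by transcript length, was summed by gene and used only to compare levels between genes. Transcripts outside the annotation took 0.315 to 0.424% of the counts of a library and were left out.

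Genes that reached 10 counts in 16 or more of the 32 libraries were tested in R 4.3.3 with the quasi-likelihood F test of edgeR 4.0.16 (TMM normalization, robust dispersion), in one fit of 8 group means whose spread is shared by all groups. Contrasts were WD against CD within each sex and genotype, KO against WT within each sex and diet, females against males on each diet, and differences of diet effects, and p-values were adjusted by Benjamini-Hochberg over all genes tested. Each mouse is a separate animal (n = 4 per group). The length trend of each library was a lowess curve with a span of 0.5 over log2 CPM with a prior count of 2. Alternatives were RLE size factors, length offsets, DESeq2 1.42.0, separate fits, other filters, protein-coding transcripts only, a replicate block and each library left out. The fits without acinar libraries together with the trend, and with each library left out together with the trend, were chosen after seeing the data. Procedures were tested on simulated data.

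The members, gene lists, motifs and rules were chosen with earlier results of these data known. Named genes are up to 3 called genes with the smallest p per role and direction in each diet comparison, up to 5 per direction in the sex comparisons, called genes elsewhere, and isoform families, complex II and the extremes of TPM whatever their values. Other genes named, including those with the smallest p where none was called, were chosen after their values were seen. Deviations of equally numbered mice from their group means had a mean correlation of 0.0181, against -0.00577 for mice of other numbers. What the numbers stand for is not given in the labels, and the main fit did not pair mice. Results for some genes are not reported here.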

Additional observations from a re-analysis of the deposited data

Results flagged for a closer look

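Of 352 sets of 4 values examined, which were the 8 groups for each of 43 named genes and for the share of counts of the 91 genes, 21 held a mouse farther from the others than Dixon's test allows at the 95% level, and chance alone gives about 1 in 20 sets. In KO males on the CD replicate 2 was the highest for Ndufaf3 (7.95 CPM), Ndufb5 (91.9 CPM), Uqcrh (186 CPM), Atp5j2 (161.0 CPM) and Cox7a2l (83.1 CPM). In KO males on the WD replicate 2 was the lowest for Ndufb5 (47.0 CPM) and Uqcr11 (55.4 CPM), and replicate 1 for Atp5g2 (4.33 CPM). In KO females on the CD replicate 1 was the highest for Ndufb10 (118 CPM), Ndufb5 (107 CPM), Ndufv2 (114 CPM) and Uqcrh (209 CPM), and replicate 4 for Atp5g2 (9.56 CPM). In WT females on the CD replicate 4 was the lowest for Sdhd (148 CPM) and the highest for Atp5g2 (7.18 CPM). In WT females on the WD replicate 4 was the lowest for Cox6b1 (112 CPM) and Cox7a2 (73.9 CPM), replicate 2 the highest for Uqcrq (129 CPM) and Ndufa4 (166 CPM), and replicate 3 the highest for Cox8a (100.5 CPM). In WT males on the WD replicate 3 was the lowest for Atp5g3 (260.3 CPM). Genes that failed the count filter gave a signal in single libraries, with 152 counts of Cox6a2 and 59 of Cox8b in KO females on the CD replicate 3, and 33 counts of Cox8b in KO females on the WD replicate 4.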

How the results depend on the processing

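The count of called genes in WT males (60) was 25 with the length trend removed, 34 with length offsets in edgeR, and 32 without acinar libraries and trend. With each library left out it was 21 to 67, and 13 to 36 with the trend also removed. In KO males (10) it was 6 with length offsets in edgeR, 16 with length offsets in DESeq2, 4 in a separate fit and 23 without acinar libraries, 1 to 19 with each library left out, and 4 to 13 with the trend also removed. In WT females it was 1 without CD replicate 4 with the trend removed and otherwise 0, in KO females 0 to 1 with each library left out and the trend removed (1 without WT males on the WD replicate 4, KO males on the WD replicates 1 or 2, or KO females on the CD replicate 2) and 4 without acinar libraries and trend. For KO against WT it was 0 throughout, except 0 to 4 in males on the WD with each library left out and the trend removed (4 without KO males on the WD replicate 2). For sex on the CD (2) it was 8 with the trend removed, 6 with DESeq2 and 1 in a separate fit, 1 to 20 with each library left out, and 3 to 11 with the trend also removed. For sex on the WD (3) it was 11 with the trend removed, 5 with length offsets in edgeR or DESeq2, 8 in a separate fit, 7 without acinar libraries and 10 without these and trend, 2 to 5 with each library left out, and 7 to 12 with the trend also removed. For the diet effect of females less males DESeq2 called 1, with or without length offsets. Ndufaf4, sex on the WD, turned from -0.34 to 0.02 with protein-coding transcripts only. Where no value is given for a cause, the cause was not tested.

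With the replicate number as a block, WT males had 62 called genes, KO males 10, sex on the CD 2 and on the WD 3, and all other comparisons 0. Of 32 mice 15 correlated best with a mouse of their own number in another group, although most mice compared bore other numbers. Over 2660 alternatives for 35 results on named genes, 2163 kept the call, 496 lost it and 1 reversed. Groups held 4 mice and libraries 10140048 to 15825078 counts. Cox7a1, at 0 to 81 counts, had standard errors of 0.40 and 0.50 for sex (CD and WD) and was not called there. Ndufa4l2, at 6 to 26 counts, had 0.21 and 0.22 and was not called either.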
